A study of Solanum lycopersicum with 4 samples.

Results

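AP2a (Solyc03g044300) is a tomato gene of the APETALA2 family whose mRNA carries a site for the microRNA miR172. It was selected as all entries of the 3 deposited tables whose target name begins with that identifier. This gave 3 of 12952 entries and 1 of 5373 cDNAs. The entries are 3 neighbouring positions of the same cDNA, all listed under miR172. The deposited annotation calls the gene an AP2-like ethylene-responsive transcription factor named after an Arabidopsis relative, with an ERF-type DNA-binding domain.

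The data are degradome libraries of greenhouse-grown Ailsa Craig, a variety of tomato (Solanum lycopersicum), sampled as whole fruit. The stages were 5 days after pollination, mature green (full size, still green), breaker (the first change of colour) and 7 days after breaker, which the file headers call red ripe. Each stage had 1 library, so no value has a replicate error and no test between stages was possible. In whole fruit, a change in the number of cells of a type cannot be told apart from a change in RNA per cell.

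MicroRNAs guide an argonaute protein to a paired mRNA, which plants commonly cut opposite base 10 of the microRNA. The 3′ piece keeps its poly(A) tail but has an uncapped 5′ end, and degradome sequencing reads such ends. miR172 is best known for holding down AP2-type transcription factors, by cutting their mRNA and also by blocking its translation. In tomato fruit AP2a is a known negative regulator of ripening and ethylene production: fruits with reduced AP2a ripen early and make more ethylene.

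AP2a cut ends were fewest in green fruit, most abundant at breaker and intermediate 7 days later. The cut end opposite base 10 of miR172, at position 1384 of the ITAG2.3 cDNA, had 127 tags per 10000000 (TP10M) in fruit of 5 days after pollination. It had 164 in mature green fruit, 3353 in breaker fruit and 465 in fruit of 7 days after breaker. The breaker library therefore held 81.6% of the sum over the 4 stages. TP10M values are whole numbers rounded by the authors. The number of reads behind them is unknown, so they carry no counting interval.

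Nearly all tags at the site began at the same base. The next position on one side, 1385, which faces base 9, had 1, 2, 40 and 11 TP10M in stage order. Position 1383, facing base 11, had 1, 8 and 2 TP10M in the youngest, breaker and ripest fruit, and was not listed at mature green. Both neighbours together came to 1.57%, 1.22%, 1.43% and 2.80% of the site in stage order, so the flanks stayed small at every stage.

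The authors' deposited table gives the site category 0, which in CleaveLand marks the single highest position of a cDNA, in each of the 4 libraries. The alignment penalty, for which lower means better pairing, was 3. In the authors' deposited table the likelihood of a chance peak was 0.03 in each library, with a corrected q of 0.04, 0.05, 0.03 and 0.04 in stage order. Those of both neighbours ranged between 0.86 and 0.99, with category 2. No other position 10 site had the same 4 values as AP2a, whereas some related genes share theirs.

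Cut ends elsewhere on the AP2a cDNA were also most abundant at breaker. The whole cDNA had 267, 364, 5359 and 1582 TP10M in stage order. Outside the 3 listed positions this left 138, 198, 1958 and 1104 TP10M in the same order. The breaker library was again the highest, but it held 57.6% of the 4-stage sum of these ends, against 81.6% for the site, and 7 days after breaker held 32.5% against 11.3%.

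The miR172 site accordingly took a different share of the AP2a cut ends at each stage. It held 47.6% of them in the youngest fruit and 45.1% in mature green fruit. The highest share was 62.6%, at breaker, and the lowest was 29.4%, in the ripest fruit. These shares are ratios within a library and do not depend on how libraries are scaled. Full-length mRNA was not measured, so more AP2a transcript and more cutting per transcript cannot be told apart.

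**Figure D1:**
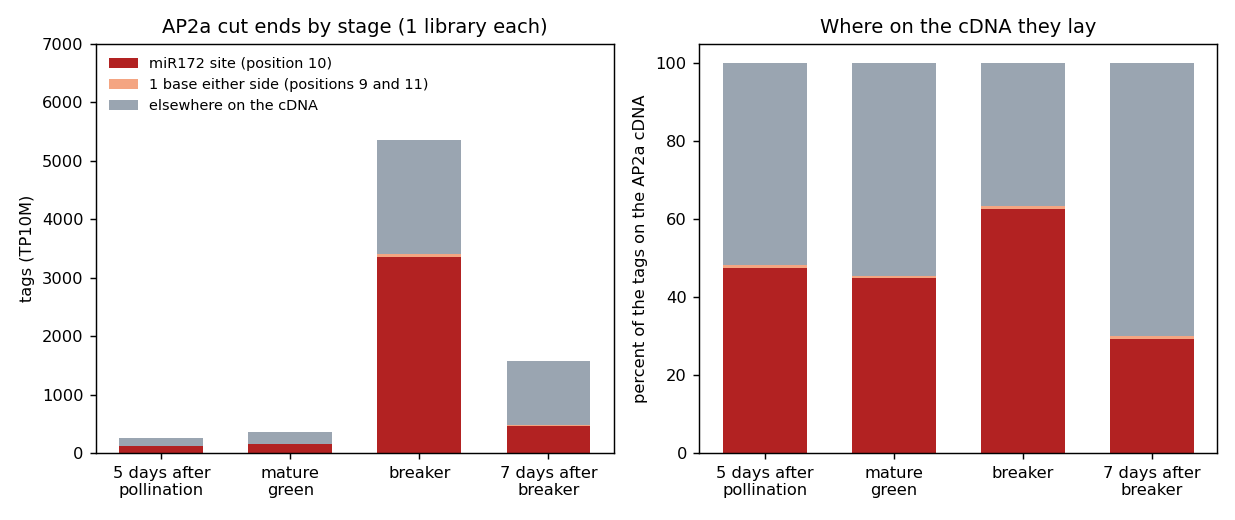
Tags on the AP2a cDNA in the 4 libraries, in TP10M (left) and as percent of the cDNA's tags (right), split into the miR172 site, the positions on either side of it and the rest of the cDNA. The site reached 3353 TP10M at breaker, and its share of the cDNA was 62.6% there and 29.4% at 7 days after breaker.

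In rank, the AP2a site moved to the top of the listed position 10 sites at breaker. Among the position 10 sites it stood 14th in the youngest fruit, 6th in mature green fruit, 1st in breaker fruit and 2nd in the ripest. At 5 days after pollination it lay between an NF-YA subunit under miR169 (Solyc01g087240, 133 TP10M) and a GRAS gene under miR171 (Solyc01g090950, 84 TP10M). At mature green it lay between growth-regulating factor 5 under miR396 (Solyc12g096070, 168 TP10M) and a class III homeodomain-leucine zipper gene (Solyc03g120910, 142 TP10M). The latter was tied with Solyc08g066500 and Solyc12g044410 of the same class. The distances between AP2a and its neighbours are small, and the order of such neighbours has no replicate check.

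At breaker the AP2a site had 6.54 times the tags of the next site, the water-stress inducible protein 3 gene Solyc04g071610 (513 TP10M, category 2, penalty 7). That cDNA stood above AP2a at 7 days after breaker, with 659 TP10M. AP2a made up 1.82%, 2.39%, 39.0% and 8.89% of all TP10M at position 10 sites in stage order. All position 10 sites together had 6990, 6862, 8598 and 5230 TP10M. Without AP2a they had 6863, 6698, 5245 and 4765, so breaker had the highest sum with AP2a and not without it. Values that related genes share are counted for each gene in these sums and in the shares.

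Mature green fruit and young fruit differed little in AP2a. The site had 164 TP10M at mature green, against 127 at 5 days after pollination, a log2 ratio of 0.37. Here and below ratios are the later stage over the earlier, of TP10M plus a pseudocount of 1. A feature was called when its 2 values summed to at least 50 TP10M and differed at least 2-fold. AP2a was not called, while 69.8% of the 43 position 10 sites tested were. For the whole cDNA the log2 ratio was 0.45, above the median of -0.23 over 2284 cDNAs, of which 29% were called in either direction. Totals are deposited only where a peak is listed, so these backgrounds hold cDNAs with a listed peak in both libraries.

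At breaker AP2a cut ends were 20.3-fold higher than at mature green at the site (3353 against 164 TP10M, log2 ratio 4.35). This was the largest ratio among the 32 position 10 sites tested, of which 25% were called higher and 31.2% lower. The whole cDNA was 14.7-fold higher (5359 against 364, log2 3.88), while the median cDNA had a log2 ratio of -0.50. Of 1394 cDNAs tested, 8.68% were called higher and 28.2% lower, and 7 had a larger ratio than AP2a. Tags outside the listed sites were 9.84-fold higher (1958 against 198, log2 3.30).

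The split of calls in this pair depends on library scaling. With median-of-ratios size factors, 12 sites were higher and 8 lower, against 8 and 10 as deposited. Of whole cDNAs 202 were then higher and 226 lower, against 121 and 393. The AP2a site was higher under both, at a log2 ratio of 4.76 after scaling.

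The 7 cDNAs with larger whole-cDNA ratios at breaker, named after their values were seen, are all annotated as enzymes. The msrA and msrB genes Solyc03g111720 and Solyc01g080410, whose products repair oxidised methionine, had 52424 and 2526 TP10M at breaker, against 321 and 84 at mature green. A 1-aminocyclopropane-1-carboxylate oxidase (Solyc07g049550), the enzyme of the last step of ethylene synthesis, had 9934 against 474. The 15-cis-zeta-carotene isomerase Solyc12g098710, of the pathway to lycopene, had 3382 against 214. The others were a tyrosine aminotransferase (Solyc10g007110), a cytochrome P450 (Solyc11g069800) and a prephenate dehydratase (Solyc11g066890). Their log2 ratios were 4.31, 3.90 and 3.89. None of the 7 had a listed peak of category 0 or 1, whereas AP2a had one in each library. The share of all listed cDNAs with such a peak is not given here, so the count only describes these 7.

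At 7 days after breaker the miR172 site of AP2a was 7.20-fold lower than at breaker and the rest of its cDNA 1.77-fold lower. The site had 465 TP10M, against 3353 at breaker, a log2 ratio of -2.85. Of the 26 position 10 sites tested, 57.7% were called lower and 11.5% higher, and 6 had a lower ratio than AP2a. With a minimum sum of 10 TP10M the balance turned, with 42 sites higher and 34 lower. The whole cDNA had 1582, against 5359 at breaker (log2 -1.76). Among 1336 cDNAs the median was 0.46, 7.26% were called lower and 23.4% higher, and 45 had a lower ratio. Outside the listed sites AP2a had 1104, against 1958 (log2 -0.83), short of 2-fold.

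Scaling turned the balance of whole-cDNA calls in this pair, with 120 higher and 182 lower, against 313 and 97 as deposited. The AP2a site was lower under both, at -3.33 after scaling.

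**Figure D2:**
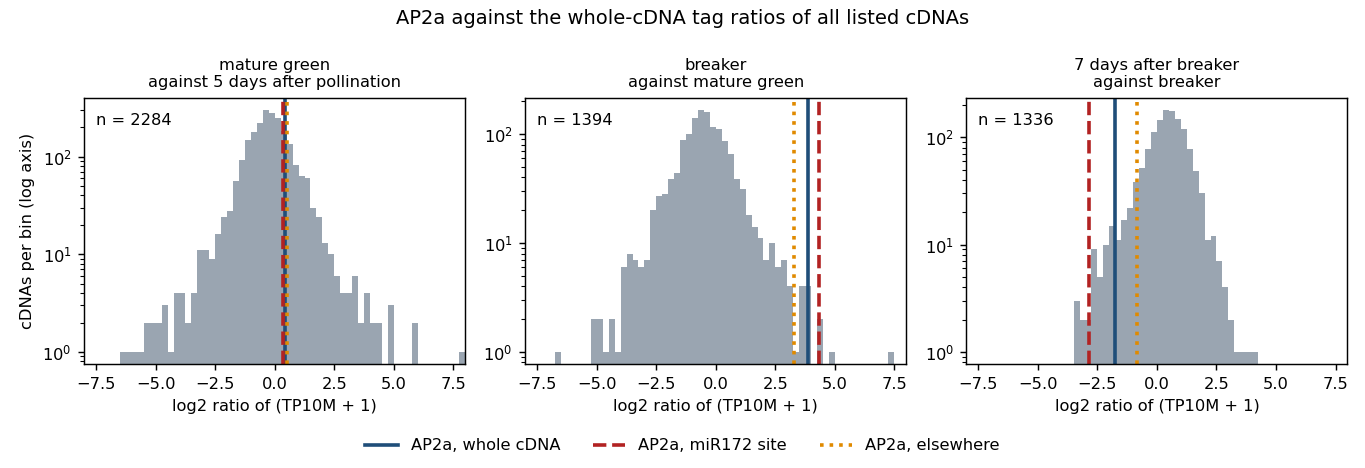
Log2 ratios of whole-cDNA tags (TP10M + 1) between successive stages, later over earlier, for all cDNAs that reached 50 TP10M in the pair (grey bars, log count axis), with AP2a marked as whole cDNA, miR172 site and elsewhere. AP2a lies near the centre at mature green, far to the right at breaker (3.88 for the whole cDNA) and to the left at 7 days after breaker (-1.76).

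Ripe fruit still had more AP2a cut ends than young fruit. At 7 days after breaker the site had 465 TP10M, against 127 at 5 days after pollination (log2 1.86), where 20% of 35 tested sites were called higher and 71.4% lower. The whole cDNA had 1582 against 267 (log2 2.56), with 13.7% of 2047 cDNAs called higher and 23.7% lower, and 62 above AP2a. Outside the listed sites the difference was larger than at the site, with 1104 against 138 (log2 2.99).

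Other cut sites varied in site share in both directions. They were taken from 38 other cDNAs with a position 10 site of category 0 or 1 in some library and at least 50 TP10M over the 4 stages. Of 35 listed in both libraries, 20 had a lower share at 7 days after breaker than at breaker and 15 a higher one. The median difference was -6.46 percentage points, against -33.2 for AP2a, and 8 of the 35 had a larger drop. Between breaker and mature green, 16 of 36 had a higher share at breaker and 20 a lower one, with a median of -2.32 points, against 17.5 for AP2a, and 9 were above AP2a. Some of these sites share their values and are not independent.

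The picture differs among sites that were already prominent. Sites of category 0 with at least 20 TP10M in both libraries were taken, a minimum set after values had been seen. All 13 such sites, AP2a included, had a lower share at 7 days after breaker than at breaker. Of the 15 such sites at mature green and breaker, AP2a included, 12 had a higher share at breaker and 3 a lower one. Their median difference was 5.24 points, and AP2a ranked 6th from the top. Category and tag minimum at breaker select sites by the quantity compared, so these counts are a description of those sites. Whether the libraries differ in general RNA breakdown was not tested.

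**Figure D3:**
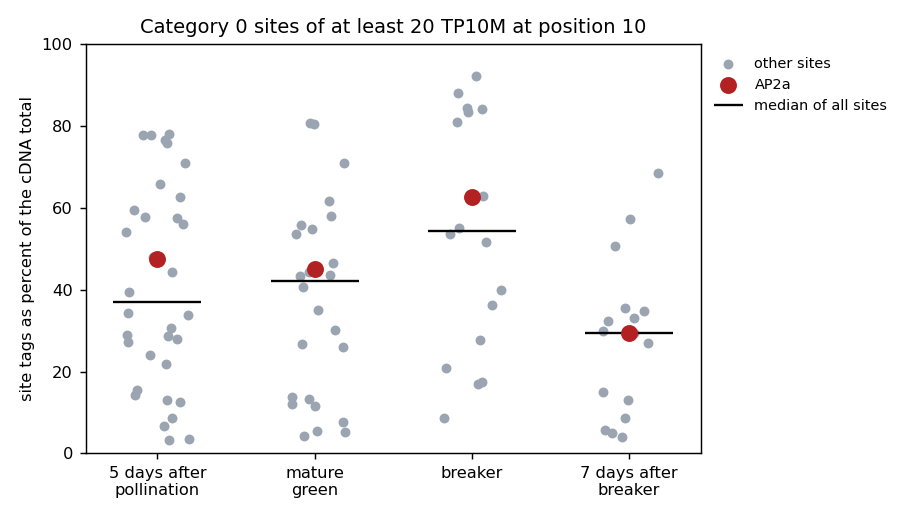
Tags at the cut site as percent of all tags on the same cDNA, for position 10 sites of category 0 with at least 20 TP10M, each library with its own set of such sites, with AP2a in red and a line at the median. AP2a lies above the median in the first 3 libraries (62.6% against 54.3% at breaker) and is itself the median, 29.4%, at 7 days after breaker.

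The other AP2-like targets of miR172 had their highest values before breaker. 8 genes annotated as AP2-like were listed under miR172 with a position 10 site, all with penalties of 2 or 3. The other 7 have 6 distinct sets of values, since Solyc02g064960 and Solyc02g093150 share theirs: 170, 133, 109 and 23 TP10M in stage order. At 5 days after pollination AP2a, at 127 TP10M, ranked 6th of the 8, and the other sets ranged between 4 and 170 with a median of 153. At mature green AP2a ranked 1st with 164, and the others had a median of 33.5. At breaker it had 3353, against a highest value of 109 and a median of 2.5. At 7 days after breaker it had 465, against a highest of 24 and a median of 9.

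With identical values counted once, AP2a held 14.9%, 38.2%, 96.5% and 87.6% of the TP10M at AP2-like sites in stage order. At breaker it had 27.7 times the sum of the others, 3353 against 121. Of the 5 other sets that summed to at least 10 TP10M at breaker and mature green, 0 were at least 2-fold higher at breaker and 4 were lower, with a median log2 ratio of -2.68 against 4.35 for AP2a. Lower values also prevailed at large: of 130 position 10 sites tested at that minimum, 54.6% were lower at breaker and 25.4% higher. In stage order the libraries listed 2538, 2300, 1118 and 2008 position 10 sites, and a site not listed counted as 0. The shared pair was nearest to level, at -0.28. No other AP2-like gene had its highest value at breaker. Solyc04g049800 was highest at mature green, with 4, 44, 6 and 17 TP10M, and the remaining ones at 5 days after pollination. It was the only one of the others with more at 7 days after breaker than at 5 days after pollination, 17 against 4 (log2 1.85), close to the 1.86 of AP2a at far lower values.

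**Figure D4:**
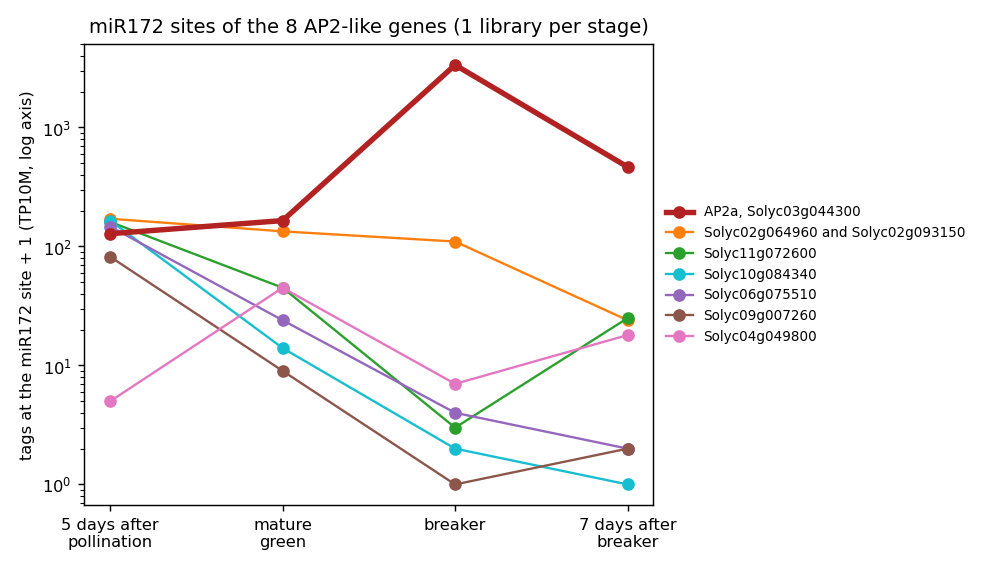
Tags at the miR172 site plus 1 (TP10M, log axis) for the 8 AP2-like genes across the 4 stages, with 1 library per stage; a gene not listed in a library is drawn at 0 tags. AP2a climbs to 3353 TP10M at breaker, while the highest of the others there is 109.

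Outside the AP2-like genes, miR172 had 168 position 10 sites in 166 genes, none above 13 TP10M in any library. Together they had 99, 83, 13 and 88 TP10M in stage order. The breaker library listed the fewest position 10 sites, and a site not listed there counted as 0. With identical AP2-like values counted once, AP2a held 13.4%, 32.0%, 96.2% and 75.1% of all position 10 tags under miR172. A gene outside the family was paired as well by penalty: a homeobox-leucine zipper gene, Solyc01g090460, had the same penalty of 3, but 1, 2 and 1 TP10M in the youngest, mature green and ripest fruit and no listing at breaker, with category 2. Of the 168 sites, 2 had category 0 or 1, in Solyc10g083060 and Solyc08g029220, each with at most 1 TP10M. The share of all position 10 sites with such a category is not given here, so this count only describes these sites.

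The stage pattern of AP2a was compared with those of the same 38 other cDNAs. The measure was the distance between patterns: the share of the 4-stage sum that lies in a different stage, from 0% for the same pattern to 100% for none in common. At breaker AP2a had 81.6% of its sum, against a median of 11.7% for the 38, of which 10 were highest at breaker and 17 at 5 days after pollination.

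The nearest was a DNA cytosine methyltransferase (Solyc02g062740), under miR396, at a distance of 5.79% with 1, 17, 142 and 14 TP10M in stage order. It also had 81.6% of its sum at breaker, but its whole cDNA had 258 TP10M there against 267 at mature green, which is no higher. Next came a pair of auxin response factors annotated as number 16, under miR160. Solyc06g075150 had 11, 54, 248 and 14 TP10M at a distance of 12.8%, and Solyc11g069500 had 17, 42, 145 and 10 at 20.5%. The GRAS gene Solyc01g090950 followed, under miR171, with 84, 88, 338 and 33 TP10M at 24.6%.

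The fifth was CNR (Solyc02g077920), under miR156 and miR157, an SBP-box transcription factor needed for normal ripening. It had 7, 111, 431 and 221 TP10M at its site, at a distance of 27.8%. Its site held 16.9% of the tags on its cDNA at breaker, against 62.6% for AP2a. The sites nearer in pattern held 55.0%, 87.9%, 27.7% and 81.1% in the order named, some above AP2a and some below. With 4 libraries, likeness of pattern rests on 4 values a gene.

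**Figure D5:**
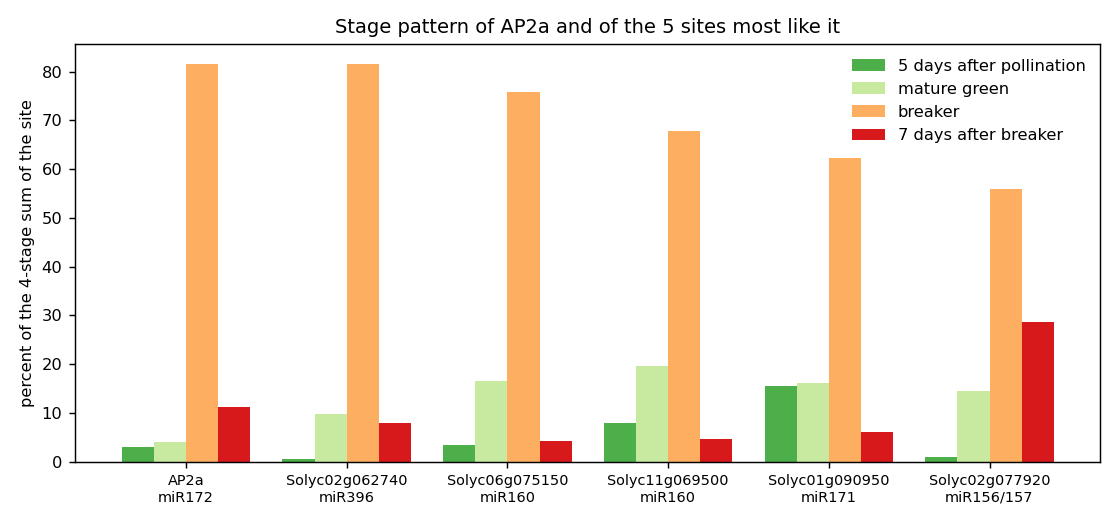
Percent of each site's 4-stage sum that lay in each stage, for AP2a and the 5 position 10 sites whose pattern was nearest. All 6 are highest at breaker, with 81.6% in AP2a and 56.0% in CNR (Solyc02g077920).

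AP2a was also set beside known ripening and ethylene genes. Of a list of 13, 6 had any entry in the tables: CNR, the MADS-box gene FUL2 (Solyc03g114830), 2 ethylene synthesis genes (Solyc01g095080 and Solyc07g049530) and 2 ethylene receptor genes (Solyc09g075440 and Solyc06g053710). Of these only CNR had a peak of category 0 or 1. The highest single position in the others was 18 TP10M, in the 1-aminocyclopropane-1-carboxylate oxidase Solyc07g049530. Its whole cDNA had 16973 TP10M at breaker, against 1374 at mature green, and its ripest fruit had 11612. The ratio at breaker, log2 3.63, was just below that of AP2a. A further count took the 29 cDNAs with ethylene in their annotation, leaving out the AP2-like genes under miR172. 1 of them had a peak of category 0 or 1, Solyc01g096860, which carries the same annotation as AP2a, with 1 TP10M under miR5301. Without the share of all listed cDNAs that have such a peak, neither count of peaks can be called low or high. Of 12 with totals that could be tested at breaker against mature green, 5 were higher and 6 lower as deposited. Over all 1394 cDNAs of that pair, 8.68% were higher and 28.2% lower. After scaling, 202 of all cDNAs were higher and 226 lower, and counts of the 12 after scaling are not given here.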

How the data were processed

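Per the labels' protocols, polyadenylated RNA of whole fruits was carried through PARE (parallel analysis of RNA ends) with MmeI and sequenced on a HiSeq 2000, with 1 library per stage. CASAVA 1.8.0 is named in the submitters' processing notes. Per the file headers, the deposited tables hold CleaveLand output for ITAG2.3 cDNAs, 1 table each for bases 9, 10 and 11 of the small RNA. The deposited tag values are scores: tags per 10000000, rounded by the authors, at the peak and over the cDNA. The deposited p-values give the likelihood that a peak arose by coincidence, as CleaveLand computes it, and the q-values are corrected by Benjamini-Hochberg. The deposited penalty score is TargetFinder's, per the column name. Neither aligner, filters nor depth is given in the sources used here.

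Entries were merged to 12619 distinct sites, 4348 of them at position 10. A dash at a site was read as 0, and a dash at a total was left out. Ratios used a pseudocount of 1 TP10M. Size factors came from the 1021 cDNAs whose total reached 10 TP10M in all 4 libraries. Calculations used Python 3.11.15, numpy 2.4.6 and pandas 2.3.3, and size factors and calls were tested on simulated data. Named genes were AP2a, its neighbours in rank, the 5 sites nearest in pattern, and the highest AP2-like and ripening genes, with others marked where named. The gene and the lists were chosen with earlier results of these data known. Alternatives were another pseudocount, size factors, a lower minimum sum, and other sums over the cDNA.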

Additional observations from a re-analysis of the deposited data

How the results depend on the processing

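AP2a kept its direction in each pair of stages under every alternative tried. Of these, a larger pseudocount cannot reverse a ratio, and the sum over the 3 listed positions is mostly the site itself. The whole cDNA and the tags outside the listed positions are measures other than the site. A pseudocount of 5 TP10M gave log2 ratios of 0.36 for mature green against 5 days after pollination, 4.31 for breaker against mature green, -2.84 for 7 days after breaker against breaker and 1.83 for 7 days after breaker against 5 days after pollination. In the same order of pairs, size factors gave 0.49, 4.76, -3.33 and 1.93, having shifted ratios of abundant features by 0.12, 0.42, -0.48 and 0.06. The sum over the 3 listed positions gave 0.36, 4.35, -2.83 and 1.88, the whole cDNA 0.45, 3.88, -1.76 and 2.56, and tags outside the listed positions, added after the data were seen, 0.52, 3.30, -0.83 and 2.99. Only this last measure, at -0.83, crossed the 2-fold line. With all 3 positions the share of the cDNA was 48.3%, 45.6%, 63.5% and 30.2% in stage order. A minimum sum of 10 TP10M raised the called position 10 sites to 102, 104, 76 and 113 in the order of pairs, against 30, 18, 18 and 32 at 50 TP10M, since more sites were tested. The split was then 55 higher and 47 lower, 33 and 71, 42 and 34, and 43 and 70, against 15 and 15, 8 and 10, 3 and 15, and 7 and 25. Counts of called whole cDNAs stayed within 1.5 times. No paired analysis was possible because each stage had 1 library. Leaving out a library leaves no comparison for its stage.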

Other observations

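Stage patterns of whole-cDNA tags were compared over a wider set of cDNAs than those of cut sites. Among 1037 other cDNAs with totals in all 4 libraries, the median had 18.0% of its 4-stage sum at breaker, against 70.8% for AP2a, and 2 had more than AP2a. By the same distance measure, applied to totals after the data were seen, the nearest were a cytochrome P450 (Solyc11g069800), with 237, 141, 2118 and 408 TP10M in stage order, and Solyc07g044900, of unknown function, with 15, 21, 155 and 36. The 1-aminocyclopropane-1-carboxylate oxidase Solyc07g049550 came next with 422, 474, 9934 and 4489, then the prephenate dehydratase Solyc11g066890 with 197, 95, 1426 and 204. None of these had a listed peak of category 0 or 1. The share of all listed cDNAs with such a peak is not given here, so this only describes the cDNAs named. The comparison by cut site took only sites of category 0 or 1, so these cDNAs were not part of it. Their absence from the 5 nearest to AP2a by cut site follows from that selection and is not a result.

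In the family, the site share of AP2a at breaker, 62.6%, stood beside 36.3% and 51.7% for Solyc02g064960 and Solyc02g093150. The site values of these 2 are the same and their totals differ, with 300 and 211 TP10M. The other members listed at breaker had low totals. Their shares ranged between 5.88% (Solyc11g072600, total 34 TP10M) and 60% (Solyc06g075510, total 5 TP10M).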
